A study of Mus musculus with 228 samples.

Results

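Potassium channel genes were described in RNA of single hippocampal neurons of the mouse. The genes are the symbols of the count table that begin with Kcn, go on in lower-case letters and end in a number, without Kcnj2, Kcnj10 and Kcnq1ot1. This gave 90 of 22870 genes, among them pore-forming subunits and the accessory Kcnab, Kcnip, Kcnmb and Kcne subunits. The cells were ventral CA1 pyramidal neurons (CA1), reached through Nex-Cre mice, and ventral granule cells of the dentate gyrus (GC), reached through Calb1-Cre mice, and the type and the line therefore cannot be told apart. All mice were adults of 3 to 4 months, and all had received a Cre-dependent adeno-associated virus (AAV) for the fluorescent protein EGFP 1 month before. In the Ascl4 groups a further AAV carried Ascl4, which codes for a basic helix-loop-helix protein that regulates transcription. The factor cannot be told apart from the further virus, which was never given without it. The quality-controlled table held 45 Ascl4 CA1, 46 EGFP CA1, 51 Ascl4 GC and 47 EGFP GC cells, each drawn into a patch pipette and sequenced as its own library.

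Potassium channels let potassium ions leave or enter a neuron and so set its resting potential, the shape of its action potentials and its firing rate. Voltage-gated alpha subunits of the Kv1 (Kcna), Kv2 (Kcnb), Kv3 (Kcnc), Kv4 (Kcnd) and Kv7 (Kcnq) families assemble as tetramers. Silent subunits (Kcnf, Kcng, Kcns, Kcnv) open only together with Kv2 subunits, and Kcnab and Kcnip proteins modify Kv1 and Kv4 channels. Other members open to calcium (Kcnn, Kcnma1), to sodium (Kcnt), pass current inward (Kcnj) or carry leak current (Kcnk).

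Animals are not named in the labels. Each group was therefore treated as a single sample, the groups were not tested against each other, and how much animals differ is unknown. Each group was read as the sum of its cells, expressed per 1000000 gene reads (CPM), and a log2 ratio is that of CPM + 1, which understates the fold of low genes. Intervals are exact Poisson intervals for summed reads and exact Clopper-Pearson intervals for shares of cells, both at 95% and for counting error only. Depth ran between 1077532 and 25442664 gene reads per cell, so that 10 CPM stands for more than 10 reads in every cell. A gene counted as expressed with a read in at least 25% of the cells of 1 group and at least 10 CPM in 1 group. This held for 10745 genes and for 47 of the 90 potassium channel genes. Counts of members concern expressed members at least 2-fold different. A difference is called steady when it also had the same direction in the mean over cells without the highest cell of each group and in both runs of title numbers, which the labels do not call batches. Within each cell type, the first run holds the lower title numbers and the second the higher. The GC and CA1 numbers form separate blocks, so for CA1 against GC a run only splits each group and is not a shared run.

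Ascl4 itself reached 9395 CPM in Ascl4 CA1 and 32.6 CPM in EGFP CA1 cells, and 14111 CPM in Ascl4 GC and 47.2 CPM in EGFP GC cells. The granule cell markers summed to 2129 CPM in Ascl4 CA1, 1669 CPM in EGFP CA1, 5292 CPM in Ascl4 GC and 6996 CPM in EGFP GC cells. The 20 CA1 markers summed to 4302, 4754, 301.8 and 135.3 CPM in the same groups. Neurod6, a defining CA1 marker, was at 94.2 CPM in Ascl4 CA1 and 319 CPM in EGFP CA1 cells. Prox1, a defining granule cell marker, was at 156.2 CPM in Ascl4 GC and 175.3 CPM in EGFP GC cells. Markers within a list went both ways. In Ascl4 CA1 and EGFP CA1 cells, for example, Wfs1 was at 245.7 and 78.1 CPM and Dcn at 606.5 and 174.8 CPM. In Ascl4 GC and EGFP GC cells, C1ql2 was at 294 and 1017 CPM and Calb1 at 1201 and 1025 CPM. In 8 Ascl4 CA1 cells, 1 EGFP CA1 cell and 1 Ascl4 GC cell the markers of the other cell type summed higher than those of the labelled type. More than 12000 genes were detected in 1 Ascl4 CA1 and 4 Ascl4 GC cells, and in 0 EGFP cells. Microglia markers, of which all 20 were found in each group, summed to 5104 CPM in Ascl4 CA1, 2434 CPM in EGFP CA1, 1893 CPM in Ascl4 GC and 861 CPM in EGFP GC cells. Markers of the oligodendrocyte lineage summed to 7618 CPM in Ascl4 GC and 635 CPM in EGFP GC cells. Mbp made up 5754 CPM and 438 CPM of these sums. The cell median went the other way, at 44.7 CPM in Ascl4 GC and 238.5 CPM in EGFP GC cells. The highest cell held 116219 CPM in Ascl4 GC and 5326 CPM in EGFP GC. In EGFP GC cells Ugt8a, Gpr17 and Enpp6 were at 0. The oligodendrocyte lineage markers summed to 907 CPM in Ascl4 CA1 and 868 CPM in EGFP CA1 cells. Here too the cell median was lower in Ascl4 CA1 than in EGFP CA1 cells. Olig2 was at 0 in Ascl4 CA1 cells, and Opalin and Ugt8a were at 0 in EGFP CA1 cells. Astrocyte markers summed to 586, 1075, 1278 and 1118 CPM in Ascl4 CA1, EGFP CA1, Ascl4 GC and EGFP GC cells, interneuron markers to 1375, 1083, 1227 and 858 CPM, and vessel markers to 43.8, 45.8, 25.6 and 4.50 CPM. Of the interneuron markers, Cck was at 1142, 878, 696 and 315 CPM and Gad1 at 30.8, 17.3, 339 and 449 CPM in the same order, whereas Gad2 and Slc32a1 were under 4 CPM in every group. The part of such RNA in the results below was not tested. For members at least 2-fold different, log2 ratios without the cells whose other-type markers were higher, without the cells that had over 12000 genes and without the cells holding more than 5000 CPM of glial and vessel markers (called rich in glial markers) are given where they came under 2-fold or moved by over 1.5 times.

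The potassium channel genes together held 2020 CPM in Ascl4 CA1, 2508 CPM in EGFP CA1, 2526 CPM in Ascl4 GC and 2124 CPM in EGFP GC cells. A median of 24 members had a read in an Ascl4 CA1 cell, 25 in an EGFP CA1 cell, and 26 in an Ascl4 GC and in an EGFP GC cell. After each cell was thinned to 500000 reads, the medians were 16, 15.5, 14 and 15. A single Ascl4 CA1 cell held reads of 81 members. The calculation per kilobase of exon, averaged over the 4 groups, put the Kv4 partner Kcnip2 first at 52.7 CPM per kilobase, ahead of Kcnip3 at 42.2, the leak channel subunit Kcnk1 at 35.4 and Kcnip4 at 21.99. Next came the inward rectifier Kcnj3, the Kv1 partner Kcnab1, Kcna1, Kcnj9 and the calcium-activated Kcnn2, which lay between 19.4 and 15.3 CPM per kilobase.

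Expression was uneven between cells. The median expressed member reached 10 CPM in 17.8% of Ascl4 CA1, 19.6% of EGFP CA1, 13.7% of Ascl4 GC and 14.9% of EGFP GC cells. For 13 of the 47 expressed members a single cell supplied at least 50% of the summed reads in Ascl4 CA1, for 10 in EGFP CA1, for 20 in Ascl4 GC and for 19 in EGFP GC.

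**Figure D1:**
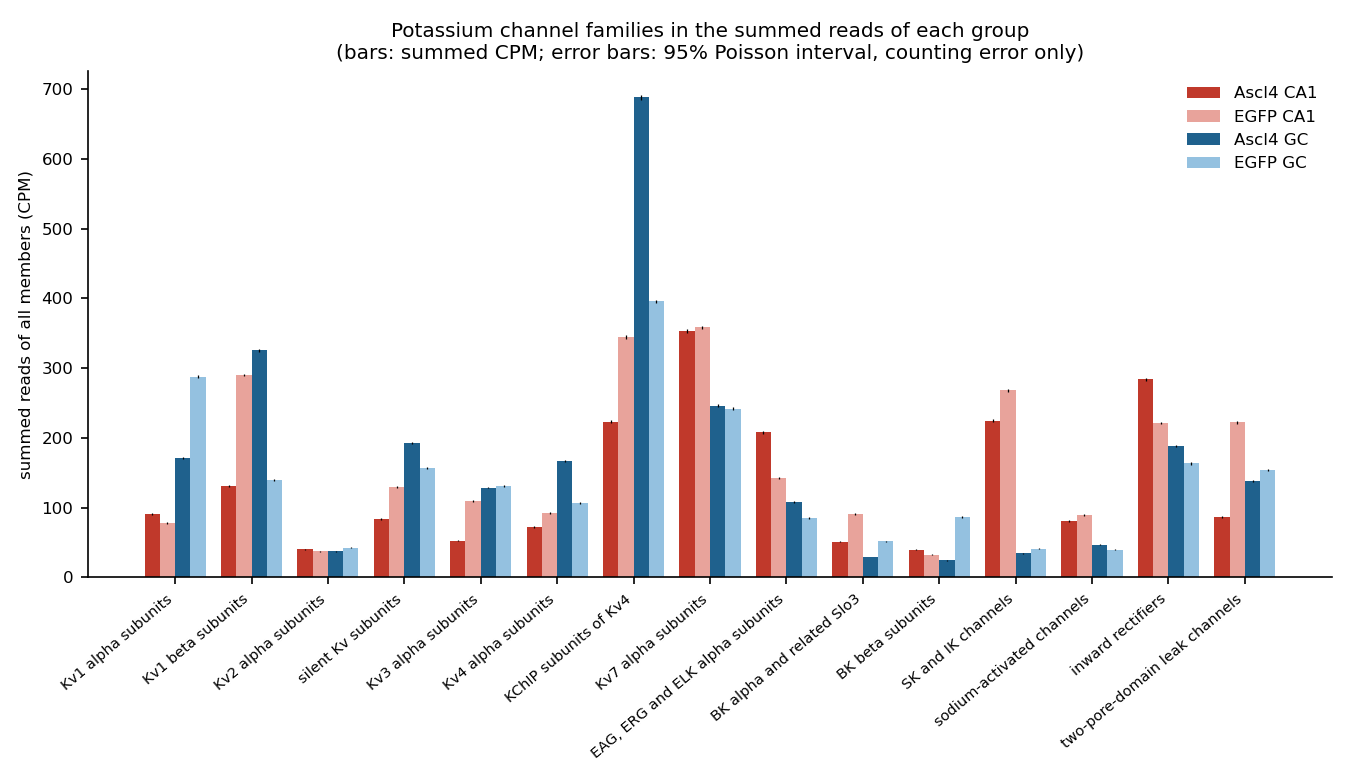
Summed reads of each potassium channel family (y axis, CPM; bars with 95% Poisson intervals for counting error) in Ascl4 CA1, EGFP CA1, Ascl4 GC and EGFP GC cells. The KChIP subunits stand at 688 CPM in Ascl4 GC against 396 CPM in EGFP GC cells, and the SK and IK channels at 268 CPM in EGFP CA1 against 41.04 CPM in EGFP GC cells.

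Families took different shares of the channel reads in the 4 groups, as the plot of families shows. KChIP subunits, the calcium-binding partners of Kv4, held 222.96 CPM in Ascl4 CA1, 345 CPM in EGFP CA1, 688 CPM in Ascl4 GC and 396 CPM in EGFP GC cells. In Ascl4 GC cells this was 27.2% of all potassium channel reads, against 18.6% in EGFP GC cells. Kv1 alpha subunits held 90.3 CPM in Ascl4 CA1 and 77.5 CPM in EGFP CA1 cells, and 171.5 CPM in Ascl4 GC and 288 CPM in EGFP GC cells. The summed Kv1 beta reads showed opposite differences in the 2 cell types: 130 CPM in Ascl4 CA1 against 290 CPM in EGFP CA1 cells, but 325 CPM in Ascl4 GC against 139.2 CPM in EGFP GC cells. Of the 3 subunits only Kcnab1 had this pattern, while Kcnab2 was lower and Kcnab3 higher with Ascl4 in both cell types. Kv2 subunits, which carry delayed rectifier current, lay between 37.4 and 42.5 CPM in the 4 groups.

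The first comparison describes the 2 cell types without Ascl4. In EGFP CA1 cells the 5 expressed Kv1 alpha subunits were all at least 2-fold lower than in EGFP GC cells, though not all steadily, and the SK and IK genes together stood higher. Kcnc2, Kcnn2, Kcnq5 and Kcns3 were among the members higher in EGFP CA1 cells, and Kcnc4, Kcna1, Kcna3, Kcna4 and Kcnd3 among those lower. In all, 10 members of the 47 were 2-fold or more higher and 12 lower, beside 21.1% of all expressed genes higher and 17.2% lower. With the authors' normalized values 12 members were higher and 13 lower, beside 18.8% and 25.8% of all expressed genes. Steady differences numbered 9 higher and 9 lower members, beside 17.1% and 13.2% of all expressed genes. The median log2 ratio was -0.05 for members and 0.03 for all expressed genes. The count of members at least 2-fold higher is thus near the share of all genes.

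**Figure D2:**
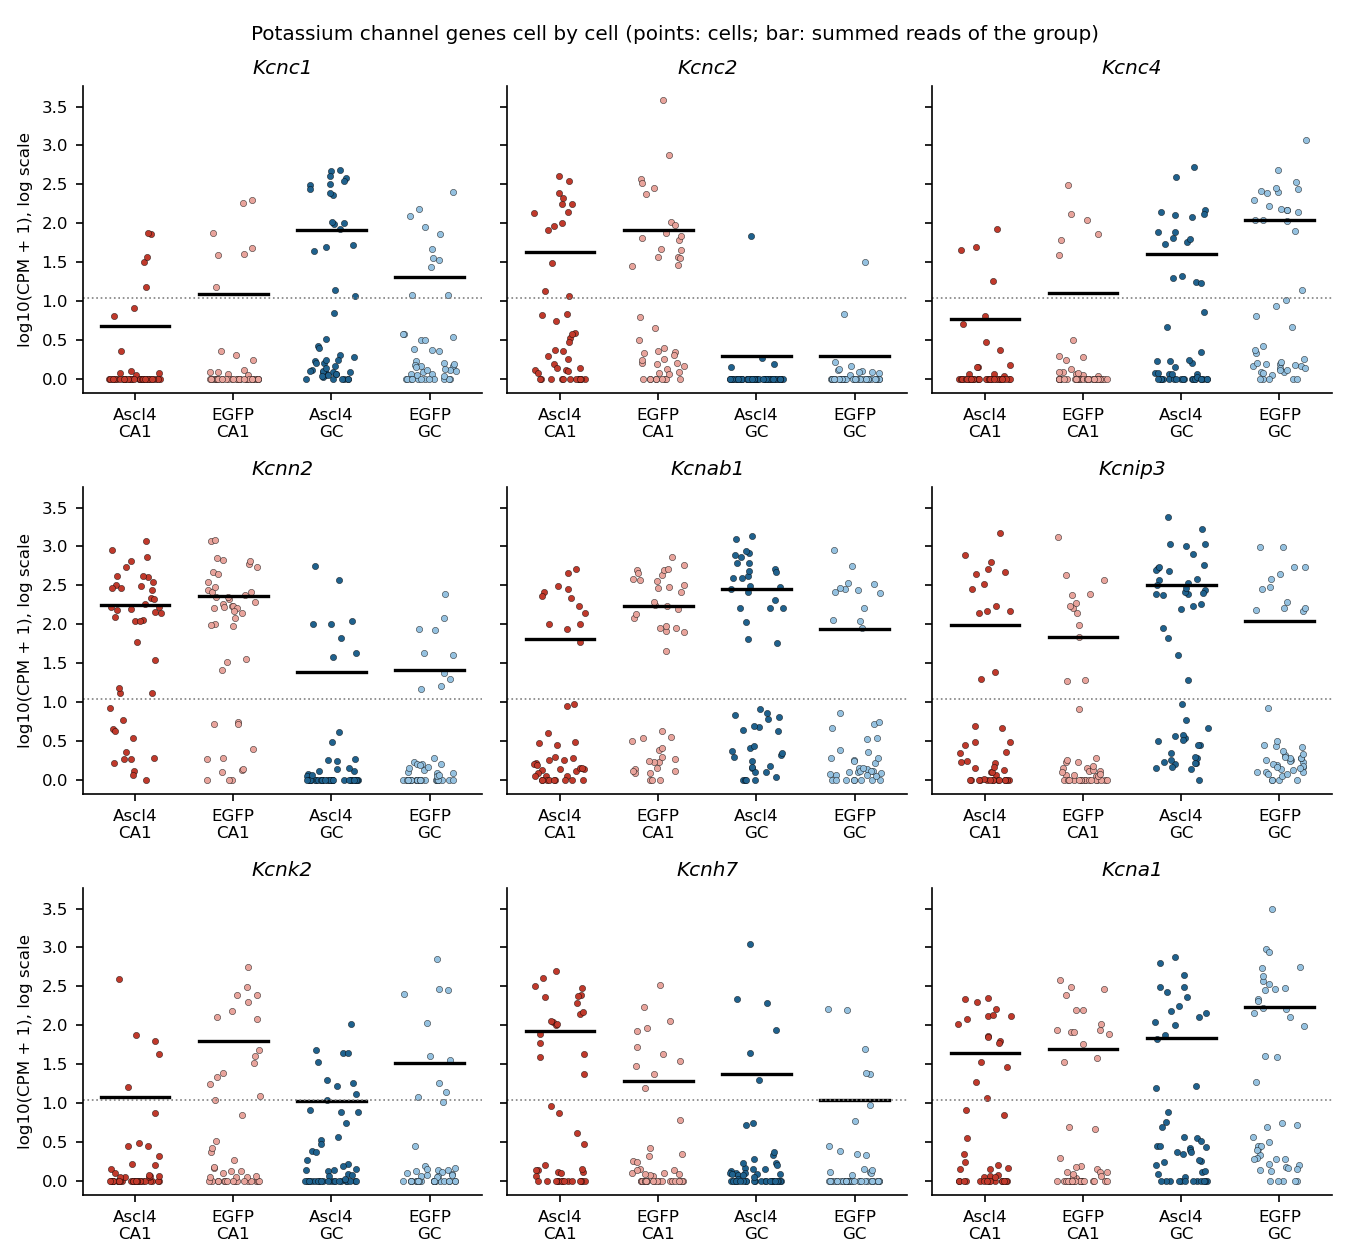
Each point is 1 cell, with log10(CPM + 1) on the y axis and the 4 groups on the x axis, for 9 potassium channel genes; the black bar is the level of the summed reads and the dotted line is 10 CPM. Kcnc2 lies above the line in 14 Ascl4 CA1 and 19 EGFP CA1 cells but in 1 Ascl4 GC and 1 EGFP GC cell, and Kcnc1 in 19 Ascl4 GC against 11 EGFP GC cells.

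Kv3 channels repolarize action potentials fast. Kcnc2 (Kv3.2, chr10:112271121-112467024, plus strand, GRCm38) was at 81.2 CPM in EGFP CA1 cells (interval 80.1 to 82.4), with a cell median of 1.39 CPM and a highest cell of 3844 CPM. In EGFP GC cells it was at 0.986 CPM, with a median of 0 and a highest cell of 31.1 CPM. The log2 ratio was 5.37, and the shares of cells at 10 CPM, 41.3% in EGFP CA1 and 2.13% in EGFP GC, rested on 19 cells and 1 cell. Kcnc4 (Kv3.4, chr3:107438303-107459552, minus strand) had the opposite pattern, at 11.8 CPM in EGFP CA1 cells (6 of 46 cells at 10 CPM) and 108.01 CPM in EGFP GC cells (19 of 47 cells), a log2 ratio of -3.10. The cells of the groups overlapped for both genes, and many cells of each group had no read.

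Calcium-activated SK channels carry the medium afterhyperpolarization. Kcnn2 (SK2) was at 231.5 CPM in EGFP CA1 cells, with a cell median of 165.9 CPM, a lowest cell of 0 and a highest cell of 1209 CPM. In EGFP GC cells it was at 25.2 CPM, with a median of 0.125 CPM, a lowest cell of 0 and a highest cell of 246 CPM. It reached 10 CPM in 34 of 46 EGFP CA1 cells and 10 of 47 EGFP GC cells, and the log2 ratio was 3.15. The BK accessory subunit Kcnmb4 was lower in CA1, at 32.2 CPM in EGFP CA1 against 84.2 CPM in EGFP GC cells.

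Kv1 subunits act in axons and limit repetitive firing. Kcna1 was at 48.0 CPM in EGFP CA1 and 172.6 CPM in EGFP GC cells, a log2 ratio of -1.82. The A-type subunit Kcna4 was at 15 CPM in EGFP CA1 and 56.8 CPM in EGFP GC cells, and Kcna3 at 4.04 and 26.9 CPM, where a single cell held 79.4% of the EGFP GC reads. Kcna2 and Kcna6 were also at least 2-fold lower, at log2 ratios of -1.04 and -1.69, but not steady: 99.3% of the Kcna2 reads of EGFP GC came from 1 cell. Without the cells rich in glial markers, Kcna2 had a log2 ratio of -1.65 and Kcna6 of 0.46. Of the Kv1 beta subunits, Kcnab2 was at 106.7 CPM in EGFP CA1 and 51.6 CPM in EGFP GC cells, a log2 ratio of 1.03, which was 0.99 without the cells whose other-type markers were higher. Kcnab3 was at 10.5 CPM in EGFP CA1 and 0.358 CPM in EGFP GC cells.

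Among Kv4 and Kv7 subunits, Kcnd3 was at 20.5 CPM in EGFP CA1 and 61.8 CPM in EGFP GC cells, and Kcnd2 at 66.6 and 43.99 CPM. Kcnq5 had 3586 reads in EGFP CA1 and 2 reads in EGFP GC cells, a ratio of CPM of 1544 with a counting interval of 427 to 12758. Kcnq3 differed less than 2-fold.

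The silent subunits went both ways. Kcns3 was at 16.8 CPM in EGFP CA1 cells and had 0 reads in the 47 EGFP GC cells. It was at least 1207-fold higher in CA1 when 3 reads are allowed over the EGFP GC group, a bound for counting error only. Of the 24 EGFP CA1 cells with an expressed silent subunit at 10 CPM, Kcns3 had the most reads per kilobase of these subunits in 4. Kcns2 was at 9.82 CPM in EGFP CA1 and 0.828 CPM in EGFP GC cells, with 1 cell holding 63.7% and 99.4% of the reads. Kcng2 was lower, at 8.22 CPM in EGFP CA1 and 50.9 CPM in EGFP GC cells, and Kcns1 had a log2 ratio of -1.29 that was not steady. The other members at least 2-fold different were the EAG channel Kcnh1 (59.2 CPM in EGFP CA1, 10.1 CPM in EGFP GC), the inward rectifier Kcnj4 (1.69 and 10.7 CPM) and the leak channel subunit Kcnk12 (12.2 and 32.4 CPM). Kcnk4, a mechanosensitive leak channel, was at 12.8 CPM in EGFP CA1 and 1.41 CPM in EGFP GC cells, but its exons overlap those of Catsperz on the same strand, so its value is uncertain. The sodium-activated Kcnt1, at a log2 ratio of 2.84, was not steady, and 1 cell supplied 98.8% of its EGFP GC reads. Its log2 ratio was 5.55 without the cells rich in glial markers.

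The second comparison sets granule cells with AAV-Ascl4 against those with AAV-EGFP alone. Kcnc1, Kcnab1, Kcnip3 and Kcnf1 were among the members higher in Ascl4 GC cells, and Kcna1, Kcnc4, Kcnq3, Kcnmb4, Kcnk2 and Kcnk12 among those lower. A difference of at least 2-fold was found for 22 of the 47 expressed members, 11 higher and 11 lower, beside 17.2% of all expressed genes higher and 19.8% lower. Without the cells rich in glial markers 9 of 46 members were higher and 10 lower (19.6% and 21.7%), beside 17.6% and 21.4% of all expressed genes. Over all cells, steady differences numbered 9 higher and 8 lower members, beside 13% and 14.2% of all expressed genes. The median log2 ratio was 0.00 for members and -0.06 for all expressed genes. In the first run it was 0.63 for members and 0.12 for all expressed genes, and in the second -0.23 and -0.20.

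Within the Kv3 family the subunits differed in opposite directions. Kcnc1 (Kv3.1, chr7:46396497-46438704, plus strand) was at 80.9 CPM in Ascl4 GC cells, with a median of 0.755, a lowest cell of 0 and a highest cell of 477 CPM. In EGFP GC cells it was at 19.8 CPM, with a median of 0.475, a lowest cell of 0 and a highest cell of 250 CPM. The log2 ratio was 1.98 in all cells, 2.71 in the first run and 1.38 in the second. Kcnc4 was at 39.5 CPM in Ascl4 GC and 108.01 CPM in EGFP GC cells, a log2 ratio of -1.43, which was -0.94 without the cells rich in glial markers.

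Of the 6 expressed accessory subunits of Kv1 and Kv4, 3 were at least 2-fold higher with Ascl4 (Kcnab1, Kcnab3 and Kcnip3) and 3 were within 2-fold. Over all expressed genes, 17.2% were at least 2-fold higher in Ascl4 GC. Kcnab1 (Kv beta 1, which speeds inactivation of Kv1 channels) was at 281 CPM in Ascl4 GC cells, with a median of 7.17 and a highest cell of 1381 CPM, and at 87.3 CPM in EGFP GC cells, with a median of 0.835 and a highest cell of 898 CPM. Cells at 10 CPM or more numbered 25 of 51 in Ascl4 GC and 13 of 47 in EGFP GC. Kcnip3 (also known as calsenilin or DREAM) was at 323 CPM in Ascl4 GC cells, with a median of 90.02 and a highest cell of 2366 CPM, and at 109.03 CPM in EGFP GC cells, with a median of 0.921 and a highest cell of 973 CPM. Its share of cells at 10 CPM was 56.9% in Ascl4 GC and 27.7% in EGFP GC. Within 2-fold, Kcnip2 was at 303 CPM in Ascl4 GC and 197.95 CPM in EGFP GC cells, Kcnip4 at 61.96 and 87.97 CPM, and Kcnab2 at 25.9 and 51.6 CPM. Kcnab3 was at 18.7 CPM in Ascl4 GC and 0.358 CPM in EGFP GC cells, with 1 cell holding 62.1% and 85.7% of the reads.

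Of the Kv1, Kv4 and Kv7 pore subunits, Kcna1 was at 68.7 CPM in Ascl4 GC and 172.6 CPM in EGFP GC cells (log2 ratio -1.32). Kcnq3, the Kv7.3 subunit of the M-current channel, was at 22.7 CPM in Ascl4 GC and 59.1 CPM in EGFP GC cells, with 7 of 51 and 12 of 47 cells at 10 CPM. Kcnd3 was at 28.4 CPM in Ascl4 GC and 61.8 CPM in EGFP GC cells. Kcnd2 was at 128.9 CPM in Ascl4 GC and 43.99 CPM in EGFP GC cells, with 1 cell holding 56.9% and 67.1% of the reads, and its log2 ratio of 1.53 turned to -0.10 without the cells rich in glial markers. Kcna6, at a log2 ratio of -2.74, was not steady, and was at -0.93 without those cells.

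Leak and silent subunits went both ways. The BK subunit Kcnmb4 was at 24.3 CPM in Ascl4 GC and 84.2 CPM in EGFP GC cells. The leak channel subunit Kcnk12 (THIK-2) was at 2.46 CPM in Ascl4 GC and 32.4 CPM in EGFP GC cells (log2 ratio -3.27), and Kcnk2 (TREK-1) at 9.54 and 31.6 CPM (log2 ratio -1.63). Kcnk3 (TASK-1) was at 11.5 CPM in Ascl4 GC and 0.493 CPM in EGFP GC cells, where 5 and 1 cells reached 10 CPM. Of the silent subunits, Kcnf1 was at 90.5 CPM in Ascl4 GC and 30.98 CPM in EGFP GC cells. Kcns2 was at 18.3 CPM in Ascl4 GC and 0.828 CPM in EGFP GC cells, and Kcns1 at 4.16 and 29.8 CPM. For Kcns1 2 cells of each group reached 10 CPM. Kcnh1 was at 36.5 CPM in Ascl4 GC and 10.1 CPM in EGFP GC cells, in 10 and 2 cells at 10 CPM. Kcnh7, Kcns3, Kcnn3 and Kcnk4 had log2 ratios of 1.11, 1.42, -1.64 and -1.26 that were not steady. Kcns3 had 0 EGFP GC reads, which made it at least 120-fold higher with 3 reads allowed over the group, but 99.4% of its Ascl4 GC reads came from 1 cell. Its log2 ratio was 0.01 without the cells whose other-type markers were higher and 0 without the cells rich in glial markers, where that of Kcnn3 was -3.80. Kcnk4 had 2 reads in Ascl4 GC and 304 reads in EGFP GC cells, all 304 from 1 cell.

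The third comparison sets CA1 cells with AAV-Ascl4 against those with AAV-EGFP alone. More members were lower than higher in Ascl4 CA1 cells, among them Kcnab1, Kcnab2, Kcnip2, Kcnip4, Kcnma1, Kcnk1, Kcnc1 and Kcnt2, while Kcnh7 and Kcnj4 were higher. Of the 47 expressed members 17 were at least 2-fold lower and 4 higher, beside 14.4% of all expressed genes lower and 14.7% higher. Steady differences numbered 13 lower and 2 higher members, beside 10.4% and 11.8% of all expressed genes. The median log2 ratio was -0.39 for members and -0.01 for all expressed genes. In the first run it was 0 for members and 0.12 for all expressed genes, and in the second -0.47 and -0.06. Without the cells whose other-type markers were higher 13 were lower and 7 higher, beside 14.6% and 14.8% of all expressed genes. Without the cells rich in glial markers 14 were lower and 10 higher, beside 16.1% and 17.8% of all expressed genes.

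Of the 6 expressed Kv1 and Kv4 partners, 4 were at least 2-fold lower and 2 within 2-fold, beside 14.4% of all expressed genes lower. Kcnab1 was at 63.5 CPM in Ascl4 CA1 cells, with a median of 0.822 and a highest cell of 508 CPM, and at 172.8 CPM in EGFP CA1 cells, with a median of 85.8 and a highest cell of 739 CPM. It reached 10 CPM in 13 of 45 Ascl4 CA1 and 26 of 46 EGFP CA1 cells, and the log2 ratio was -1.43, or -1.70 without the cells whose granule cell markers were higher. Kcnab2 was at 50.3 CPM in Ascl4 CA1 and 106.7 CPM in EGFP CA1 cells, in 22 and 36 cells at 10 CPM. Kcnip2 was at 74.2 CPM in Ascl4 CA1 cells (median 4.49) and 158.1 CPM in EGFP CA1 cells (median 88.5), and Kcnip4 at 50.6 and 118.5 CPM. The log2 ratios of Kcnab2 and Kcnip2 were -1.07 and -1.08. They were -0.85 and -0.80 without the cells whose granule cell markers were higher, and -0.89 and -0.99 without the cells rich in glial markers. The log2 ratio of Kcnip4 was -1.21, and -0.67 without the cells rich in glial markers. Exons of Kcnip4 overlap 5730480H06Rik on the other strand, which was at 24.5 CPM in Ascl4 CA1 and 70.9 CPM in EGFP CA1 cells. The extent of the overlap was not measured and the strand setting is not given, so the value of Kcnip4 is uncertain. Within 2-fold, Kcnab3 was at 16.7 CPM in Ascl4 CA1 and 10.5 CPM in EGFP CA1 cells, and Kcnip3 at 98.2 and 67.9 CPM.

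Kcnh7 (an ERG channel subunit, chr2:62693414-63184287, minus strand) was the highest of the differences in the other direction. It was at 83.3 CPM in Ascl4 CA1 cells, with a median of 2.01, a lowest cell of 0 and a highest cell of 501 CPM. In EGFP CA1 cells it was at 18.5 CPM, with a median of 0.232, a lowest cell of 0 and a highest cell of 331 CPM. It reached 10 CPM in 19 of 45 Ascl4 CA1 and 11 of 46 EGFP CA1 cells, and the log2 ratio was 2.12 in all cells and 2.18 without the cells whose granule cell markers were higher. Its exons overlap Gca on the other strand, which was at 13.7 CPM in Ascl4 CA1 and 6.24 CPM in EGFP CA1 cells. Kcnj4, an inward rectifier (Kir2.3), was at 7.32 CPM in Ascl4 CA1 and 1.69 CPM in EGFP CA1 cells.

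The calcium- and sodium-activated members Kcnma1 (BK) and Kcnt2 were lower. Kcnma1 was at 43.8 CPM in Ascl4 CA1 and 90.9 CPM in EGFP CA1 cells, though 16 and 17 cells reached 10 CPM. Its log2 ratio of -1.04 was -0.82 without the cells whose granule cell markers were higher. Kcnt2 was at 11.8 CPM in Ascl4 CA1 and 36.9 CPM in EGFP CA1 cells, with 12 cells of each group at 10 CPM. Kcnn2 differed less than 2-fold, at 176.3 CPM in Ascl4 CA1 and 231.5 CPM in EGFP CA1 cells.

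Of the expressed leak subunits 4 of 6 were at least 2-fold lower. So were 2 of 3 Kv3 and 4 of 7 silent subunits, beside 14.4% of all expressed genes. Steady among these were 2 leak, 2 Kv3 and 2 silent subunits. None of these families had a member at least 2-fold higher. Kcnk1 (TWIK-1) was at 47.5 CPM in Ascl4 CA1 and 116.9 CPM in EGFP CA1 cells, where 1 cell held 52.6% of the EGFP CA1 reads. Without the highest cell of each group the means were 31.8 CPM in Ascl4 CA1 and 48.3 CPM in EGFP CA1 cells. Kcnk2 was at 11.1 CPM in Ascl4 CA1 and 61.3 CPM in EGFP CA1 cells, but its log2 ratio of -2.37 turned to 2.80 in the first run, where EGFP CA1 cells held 0.868 CPM. Kcnk4 was at 2.32 CPM in Ascl4 CA1 and 12.8 CPM in EGFP CA1 cells, and the overlapping Catsperz at 6.75 and 27.02 CPM. Kcnc1 was at 3.75 CPM in Ascl4 CA1 and 11.4 CPM in EGFP CA1 cells, Kcnc4 at 4.95 and 11.8 CPM, and Kcnh1 at 16.7 and 59.2 CPM. Kcns1 was at 0.850 CPM in Ascl4 CA1 and 11.6 CPM in EGFP CA1 cells, and Kcng2 at 1.68 and 8.22 CPM, where 97.2% of the Ascl4 CA1 reads came from 1 cell. Without the cells rich in glial markers the log2 ratio of Kcng2 was -0.51 in place of -1.78, and that of Kcnc1 -3.31 in place of -1.38. Kcnk10, Kcns2 and Kcng1 were lower at log2 ratios of -2.42, -1.13 and -1.05, and Kcnj6 and Kcna6 higher at 1.07 and 1.19, all of them not steady. Without the cells whose granule cell markers were higher Kcng1, Kcns2 and Kcnj6 were at -0.87, -0.95 and 0.44, and without the cells rich in glial markers Kcng1 and Kcna6 were at 2.30 and 0.90. The silent subunit Kcnf1 stayed within 2-fold, at 44.8 CPM in Ascl4 CA1 and 23.03 CPM in EGFP CA1 cells.

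**Figure D3:**
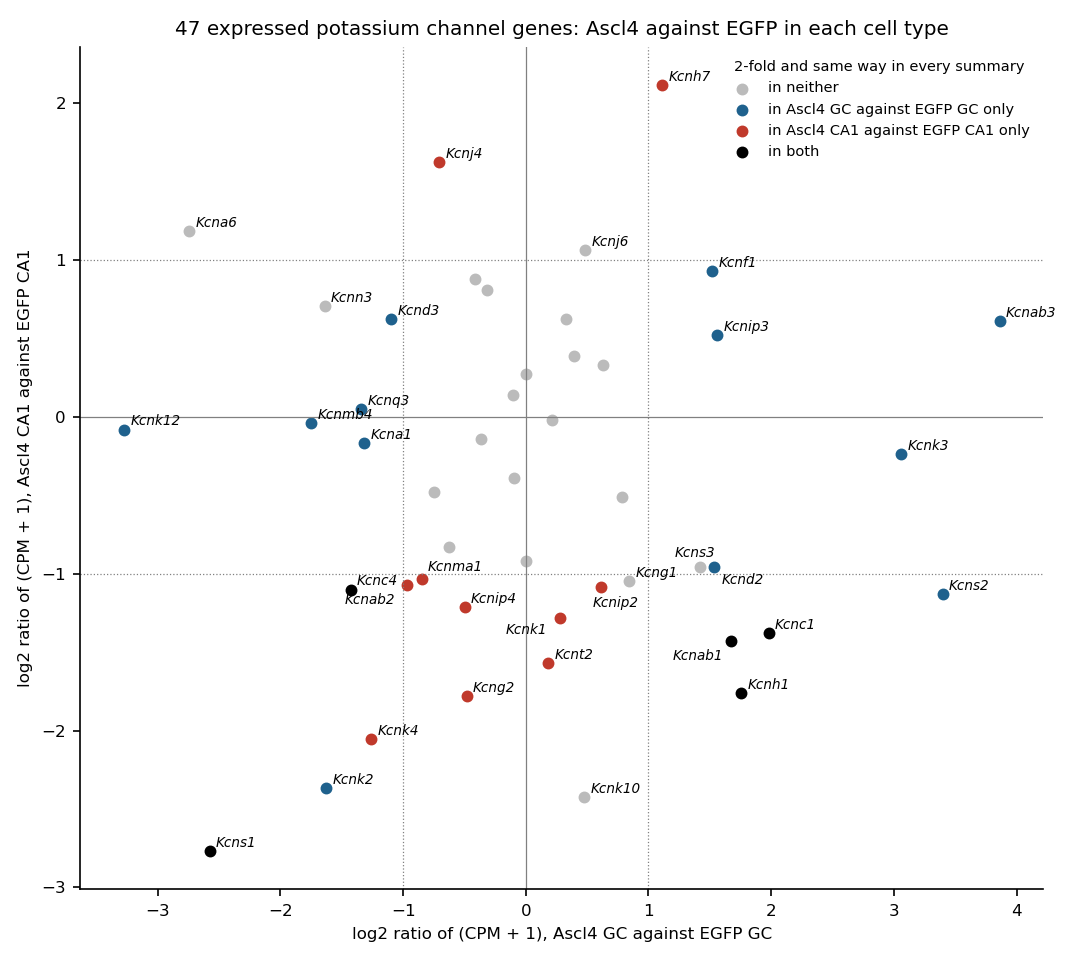
Log2 ratios of CPM + 1 of the 47 expressed potassium channel genes, Ascl4 GC against EGFP GC on the x axis and Ascl4 CA1 against EGFP CA1 on the y axis; dotted lines mark 2-fold and colours mark steady differences. Kcnc1, Kcnab1 and Kcnh1 lie at the lower right, higher with Ascl4 in GC and lower in CA1, and Kcns1 and Kcnc4 lie at the lower left.

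The GC and CA1 comparisons share no cell, so their members can be set side by side. Of the 11 members higher in Ascl4 GC, Kcnh7 was also higher in Ascl4 CA1 (1 of 11 and 1 of 4), whereas Kcnab1, Kcnc1, Kcnh1 and Kcns2 were lower there (36.4% of 11 and 23.5% of 17). Over all expressed genes 25.7% of those higher in Ascl4 GC were higher in Ascl4 CA1 and 16.8% lower. Of the 11 members lower in Ascl4 GC, Kcnc4, Kcnk2, Kcnk4 and Kcns1 were also lower in Ascl4 CA1 (36.4% of 11 and 23.5% of 17), beside 20.8% of all genes lower in Ascl4 GC, and Kcna6 was higher there, as were 16.5% of all genes lower in Ascl4 GC. Among steady differences, 3 members (Kcnab1, Kcnc1 and Kcnh1) were higher in Ascl4 GC and lower in Ascl4 CA1, 2 (Kcnc4 and Kcns1) were lower in both, and 0 were higher in both. Over all steady genes, 10.1% of those higher in Ascl4 GC were lower in Ascl4 CA1 and 19.9% higher, and 14.1% of those lower in Ascl4 GC were also lower in Ascl4 CA1. Whether the difference with Ascl4 itself differs between the cell types was not tested.

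Promoter sequence was looked up because Ascl4 belongs to the basic helix-loop-helix factors, a class known to bind E-boxes, and CAGCTG is one form of the E-box core. The 250 bases before each annotated gene start (RefSeq, GRCm38.p6) were searched for these letters, which read the same on both strands. They were found in 13% of 32851 promoters and in 13.9% of the expressed genes with a promoter entry. Of the potassium channel genes 65 had an entry and 15 held the letters, and of the expressed members 8 of 33. They were in 1 of 8 members higher and 4 of 9 lower in Ascl4 GC, and in 0 of 4 members higher and 3 of 14 lower in Ascl4 CA1. The stretches below, from a member lower in both comparisons (Kcns1), a member higher in Ascl4 GC (Kcnip3), the member with the largest log2 ratio between EGFP CA1 and EGFP GC (Kcnc2) and a member with an uncertain value (Kcnk4), show the letters in capitals with up to 25 bases on each side. A match is a description and not a binding site.
Kcns1 (chr2:164171240-164171295, minus strand): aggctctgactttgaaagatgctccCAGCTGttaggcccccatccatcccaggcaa
Kcnip3 (chr2:127522204-127522259, minus strand): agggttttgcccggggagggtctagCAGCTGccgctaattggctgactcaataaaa
Kcnc2 (chr10:112269802-112269857, plus strand): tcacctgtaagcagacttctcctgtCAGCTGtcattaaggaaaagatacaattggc
Kcnk4 (chr19:6934668-6934723, minus strand): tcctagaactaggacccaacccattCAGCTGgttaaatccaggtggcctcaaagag

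**Figure D4:**
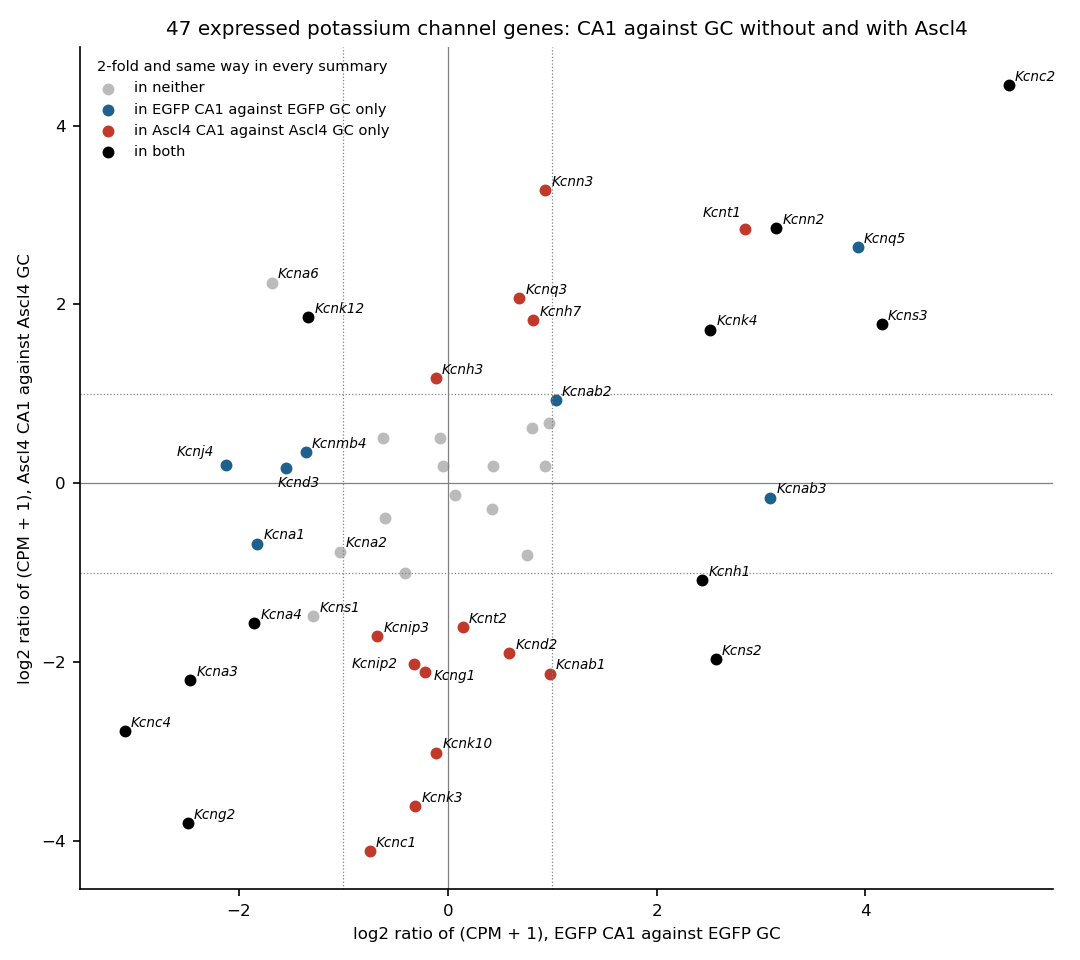
Log2 ratios of CPM + 1 of the 47 expressed potassium channel genes, EGFP CA1 against EGFP GC on the x axis and Ascl4 CA1 against Ascl4 GC on the y axis; dotted lines mark 2-fold and colours mark steady differences. Kcnc2, Kcnn2 and Kcns3 lie at the upper right and Kcnc4, Kcna3 and Kcng2 at the lower left, while Kcnc1 and Kcnk3 differ between the cell types with Ascl4 and less than 2-fold without it.

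The 2 cell types were also compared with Ascl4 in both. In Ascl4 CA1 against Ascl4 GC cells, 12 members were at least 2-fold higher and 16 lower, beside 22.7% and 16% of all expressed genes. With the authors' normalized values 10 were higher and 21 lower, beside 18.5% and 27.1% of all expressed genes. Of the 12 higher and 16 lower members in the summed reads, 10 and 15 were steady, beside 18.9% and 12.2% of all expressed genes. The median log2 ratio was -0.13 for members and 0.13 for all expressed genes. Of the 10 members higher in EGFP CA1 than in EGFP GC, 6 were also higher in Ascl4 CA1 than in Ascl4 GC (60% of 10 and 50% of 12), namely Kcnc2, Kcnk4, Kcnn2, Kcnq5, Kcns3 and Kcnt1, beside 41.4% of all genes higher in EGFP CA1. Of the 12 lower members, Kcna3, Kcna4, Kcnc4, Kcng2 and Kcns1 were lower again (41.7% of 12 and 31.2% of 16), beside 32.3% of all genes lower in EGFP CA1.

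Kcnc2 was at 42.4 CPM in Ascl4 CA1 and 0.986 CPM in Ascl4 GC cells, and Kcnn2 was at 176.3 and 23.5 CPM, with 32 of 45 and 8 of 51 cells at 10 CPM. Kcnc4 was at 4.95 CPM in Ascl4 CA1 and 39.5 CPM in Ascl4 GC cells. Kcnh1 and Kcns2 were lower in Ascl4 CA1 than in Ascl4 GC, at log2 ratios of -1.08 and -1.96, but higher in EGFP CA1 than in EGFP GC. Kcnk12 had the reverse, 11.5 CPM in Ascl4 CA1 and 2.46 CPM in Ascl4 GC cells, as did Kcna6, which was not steady. Of the 10 members higher in EGFP CA1, 20% were thus lower in Ascl4 CA1, beside 11.9% of all genes higher in EGFP CA1. Of the 12 lower members, 16.7% were higher in Ascl4 CA1, beside 17.5% of all genes lower in EGFP CA1.

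Several members at least 2-fold apart between the Ascl4 groups were within 2-fold between the EGFP groups. Of all genes higher in Ascl4 CA1 than in Ascl4 GC, 38.5% were also higher in EGFP CA1, beside 50% of the 12 members. Of all genes lower in Ascl4 CA1, 34.7% were also lower in EGFP CA1, beside 31.2% of the 16 members. Kcnc1 had the lowest log2 ratio, -4.11, from 3.75 CPM in Ascl4 CA1 and 80.9 CPM in Ascl4 GC cells. Kcnk3, Kcnk10, Kcnab1, Kcng1, Kcnip2, Kcnd2, Kcnip3 and Kcnt2 were lower in Ascl4 CA1 than in Ascl4 GC at log2 ratios of -3.61, -3.01, -2.13, -2.10, -2.02, -1.90, -1.71 and -1.61. Kcnn3 was higher, at 44.5 CPM in Ascl4 CA1 and 3.68 CPM in Ascl4 GC cells, where 1 cell held 61.6% and 95% of the reads. Kcnq3 was at 98.9 CPM in Ascl4 CA1 and 22.7 CPM in Ascl4 GC cells, Kcnh7 at 83.3 and 22.8 CPM, and Kcnh3 (an ELK channel) at 103.4 and 45.2 CPM. Exons of Kcnh3 overlap Mcrs1 on the other strand, which was at 65.2 CPM in Ascl4 CA1 and 127.64 CPM in Ascl4 GC cells. The log2 ratio of Kcnh7 was 1.82, and -0.60 with the authors' normalized values. Kcna6, Kcnq5 and Kcns1 had log2 ratios of 2.24, 2.64 and -1.48 that were not steady. Without the cells rich in glial markers the log2 ratios of Kcnd2, Kcnh1, Kcnn3, Kcns1, Kcns3 and Kcnt1 were -0.35, -0.80, 5.48, -2.60, 3.31 and 6.23. Kcnh1 was at -0.92 and Kcns3 at 3.40 without the cells whose other-type markers were higher, and Kcnt1 at 6.02 without the cells that had over 12000 genes.

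**Figure D5:**
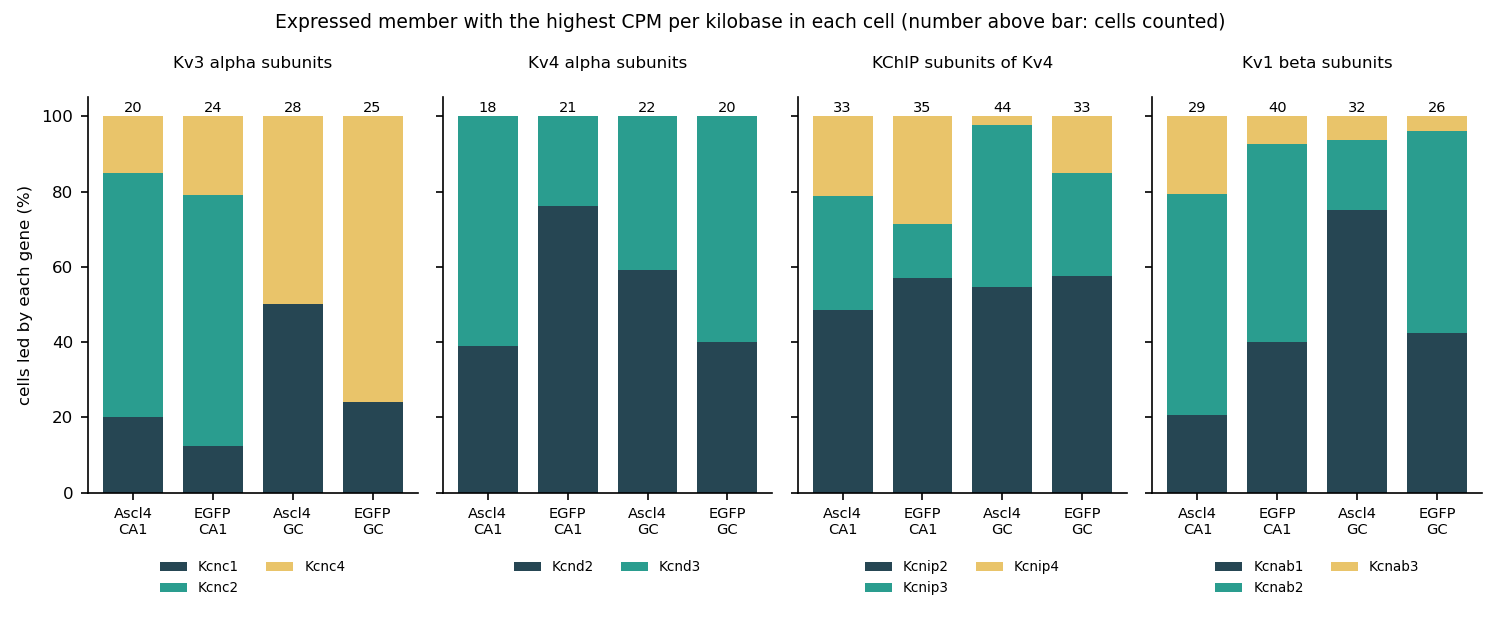
Share of cells (y axis, %) in which each gene had the highest CPM per kilobase of the expressed members of its family, in Ascl4 CA1, EGFP CA1, Ascl4 GC and EGFP GC cells, among cells with such a member at 10 CPM or more (their number stands above the bar). Kcnc2 leads 16 of 24 EGFP CA1 cells and Kcnc4 19 of 25 EGFP GC cells, while Kcnc1 and Kcnc4 lead 14 each of 28 Ascl4 GC cells.

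Cell by cell, the expressed member that led its family per kilobase was counted among cells with at least 10 CPM of any expressed member. Of the Kv3 genes, Kcnc2 led 13 of 20 Ascl4 CA1 and 16 of 24 EGFP CA1 cells and 0 granule cells. In granule cells, Kcnc1 and Kcnc4 led 14 each of 28 Ascl4 GC cells, against 6 and 19 of 25 EGFP GC cells. Of the Kv4 genes, Kcnd2 led 7 of 18 Ascl4 CA1 and 16 of 21 EGFP CA1 cells, and 13 of 22 Ascl4 GC and 8 of 20 EGFP GC cells. Of the KChIP genes, Kcnip2 led 16 of 33 Ascl4 CA1, 20 of 35 EGFP CA1, 24 of 44 Ascl4 GC and 19 of 33 EGFP GC cells. Of the Kv1 beta genes, Kcnab1 led 6 of 29 Ascl4 CA1 and 16 of 40 EGFP CA1 cells, and 24 of 32 Ascl4 GC and 11 of 26 EGFP GC cells. Kcnn2 led the SK and IK genes in 31 of 35 Ascl4 CA1 and 32 of 34 EGFP CA1 cells, and in 7 of 8 Ascl4 GC and 10 of 13 EGFP GC cells.

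Subunits that are known to assemble were looked for in the same cell, each at 10 CPM or more. Not all pairs that were counted are given here. Kcnma1 and its partner Kcnmb4 were together in 3 of 45 Ascl4 CA1 and 7 of 46 EGFP CA1 cells, and in 1 of 51 Ascl4 GC and 6 of 47 EGFP GC cells. With or without the other, Kcnma1 reached 10 CPM in 16, 17, 7 and 13 cells of these groups. Kcnmb4 did so in 11, 11, 11 and 19. Kcnj3 and Kcnj9, which form G protein-gated inward rectifiers, were together in 7, 10, 8 and 6 cells of Ascl4 CA1, EGFP CA1, Ascl4 GC and EGFP GC. Kcna1 and Kcnab1 were together in 3 Ascl4 CA1 and 11 EGFP CA1 cells, and in 9 Ascl4 GC and 9 EGFP GC cells. With or without the other, Kcna1 reached 10 CPM in 17, 15, 17 and 21 cells in the same order. Kcnab1 did so in 13, 26, 25 and 13. Kcnd2 and Kcnip2 were together in 6, 12, 11 and 8 cells, and Kcnd3 and Kcnip2 in 8, 6, 11 and 11.

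Proteins that anchor or modify potassium channels were taken from a list of 31 partner genes, of which 24 were expressed. In Ascl4 GC against EGFP GC cells 4 were at least 2-fold higher and 1 lower (16.7% and 4.17%, beside 17.2% and 19.8% of all expressed genes), and the median log2 ratio was -0.11. Cntnap2 (Caspr2, which clusters Kv1 channels) was at 23.7 CPM in Ascl4 GC and 0.68 CPM in EGFP GC cells, and Dlg2 (PSD-93) at 57.6 and 14.2 CPM. Kctd12, an auxiliary subunit of GABA-B receptors, was at 64.9 CPM in Ascl4 GC and 167.9 CPM in EGFP GC cells. In Ascl4 CA1 against EGFP CA1 cells 1 partner was higher and 3 were lower (4.17% and 12.5%, beside 14.7% and 14.4% of all expressed genes), with a median of -0.23: Nedd4l was at 176.96 CPM in Ascl4 CA1 and 87.9 CPM in EGFP CA1 cells, and Dpp10, Calm3 and Rgs7 were lower at log2 ratios of -2.63, -1.11 and -1.05. In EGFP CA1 against EGFP GC cells 4 were higher and 4 lower (16.7% each, beside 21.1% and 17.2%), and Cntnap2 was at 153.06 CPM in EGFP CA1 cells. In Ascl4 CA1 against Ascl4 GC cells 2 were higher and 3 lower (8.33% and 12.5%, beside 22.7% and 16%).

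The other 43 members did not reach the expression limits. All had at least 1 read, 21 stayed below 1 CPM in every group, and 4 reached 10 CPM with reads in too few cells: Kcng4, Kcnj11 and Kcnj16 in EGFP CA1, and Kcnj14 in Ascl4 CA1 and EGFP CA1. Kcnj16 was at 12.6 CPM in EGFP CA1 cells, of which 1 cell gave 99.7%, and Kcng4 at 15.1 CPM in EGFP CA1 cells, of which 1 cell gave 93.5%. The 4 Kcne genes together held 1.07 CPM in Ascl4 CA1, 1.78 CPM in EGFP CA1, 0.0136 CPM in Ascl4 GC and 0.433 CPM in EGFP GC cells.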

How the data were processed

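The authors deposited read counts per gene for 228 cells and for the 189 cells kept by their quality control, and a signal table in which the counts of each cell were divided by 1 factor. Per the submitters' processing notes, STAR and HTSeq were used with GRCm38.p4, with versions, strand setting and quality rules not given in the sources used here. As passing quality control, the series' own text has 51, 48, 52 and 53 cells of Ascl4 CA1, EGFP CA1, Ascl4 GC and EGFP GC, and the deposited table holds 45, 46, 51 and 47. The table was used. Spike-ins (92 rows, 4 reads) did not count toward totals.

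Groups came from the cell titles. Counts were summed per group and scaled to CPM, with a pseudocount of 1 CPM for log2 ratios, and no test was run because the labels name no animal. Named were all expressed members at least 2-fold different in a comparison, with those not steady marked, and the 10 members with the most reads per kilobase; other members are given by count and range, and members added beside them were chosen after their values were seen. A few genes that these choices include are not reported here. The members and lists were chosen with earlier results of these data known, and the subunit pairs after the files were seen. Lengths and positions came from GENCODE (GRCm38). The code was tested on simulated data. Alternatives were other scalings (edgeR 4.0.16 TMM, DESeq2 1.42.0 size factors, the authors' signal), pseudocounts, filters and subsets of cells. Scripts ran in R 4.3.3 and, with scipy 1.17.1, pandas 2.3.3, numpy 2.4.6 and matplotlib 3.10.9, in Python 3.11.15.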

Additional observations from a re-analysis of the deposited data

How the results depend on the processing

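With 1 sample per group, the results are values without a test, and the depth of the summed reads leaves a counting error far smaller than the unevenness between cells. The 93 log2 ratios of at least 2-fold in the 4 comparisons were recomputed under 16 alternatives. Of the 1488 values 24 changed sign, in 18 of the 93 ratios, and 75 kept their sign throughout; the cause was not tested. In Ascl4 GC against EGFP GC, the first number run gave 0.63 for Kcna6 and 2.89 for Kcnn3, the second -0.56 for Kcnh7, and leaving out cells with more than 5000 CPM of glial and vessel markers, chosen after seeing the data, -0.10 for Kcnd2. In Ascl4 CA1 against EGFP CA1, the mean over cells minus the highest of each group gave -0.17 for Kcna6 and -0.88 for Kcnj6, the authors' normalized values -0.11 for Kcna6, the first run 2.80 for Kcnk2 and 0.68 for Kcns2, the second run -1.10 for Kcna6, 2.68 for Kcng1 and 0.76 for Kcnk10, and leaving out cells rich in glial markers 2.30 for Kcng1. In EGFP CA1 against EGFP GC, the mean without the highest cells gave 1.81 for Kcna2 and 0.85 for Kcns1, the first run 2.87 for Kcna2, 2.73 for Kcna6 and -0.62 for Kcnt1, the second run 1.53 for Kcns1, and leaving out cells rich in glial markers 0.46 for Kcna6. In Ascl4 CA1 against Ascl4 GC, the authors' normalized values gave -0.60 for Kcnh7, the first run -0.77 for Kcnq5, and the second run -0.73 for Kcna6 and 0.74 for Kcns1. Counts moved by more than 1.5 times as follows. The members counted numbered 90 with no filter, 27 with the stricter one, 47 in each run and 32 after thinning. Without cells whose other-type markers were higher, and without cells rich in glial markers, they numbered 46. A changed count is therefore not in itself a changed share of members, and shares of all genes are not listed beside these counts. The 11 members higher in Ascl4 GC became 18 with no expression filter, 7 with a stricter one, 20 in the first run and 5 after thinning, and the 11 lower became 6 with the stricter filter and 6 after thinning. The 4 members higher in Ascl4 CA1 became 1 with a pseudocount of 10 CPM, 11 with no filter, 1 with the stricter one, 12 in the first and 8 in the second run, 2 after thinning, 7 without cells whose other-type markers were higher and 10 without cells rich in glial markers. The 17 lower became 7 with a pseudocount of 10 CPM, 26 with no filter and 11 with the stricter one. The 10 members higher in EGFP CA1 than in EGFP GC became 18 in the mean without the highest cells, 6 with a pseudocount of 10 CPM, 19 with no filter, 5 with the stricter one and 18 in the first run, and the 12 lower became 7 with a pseudocount of 10 CPM, 6 with the stricter filter and 7 after thinning. In Ascl4 CA1 against Ascl4 GC, whose counts were recomputed by a choice made after seeing the data, the 12 higher members became 7 with a pseudocount of 10 CPM, 6 with the stricter filter and 6 after thinning, and the 16 lower became 9 with the stricter filter, 10 in the second run and 10 after thinning. The authors' normalized values moved the median log2 ratio of all expressed genes in EGFP CA1 against EGFP GC to -0.20, with members at -0.17, and in Ascl4 CA1 against Ascl4 GC to -0.26, with members at -0.60. No paired analysis was possible because the title numbers name single cells and no number is shared between groups.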
